A study of Mus musculus with 12 samples.

Results

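The genes described here are 10 genes of the circadian clock, picked by symbol from the 25124 genes measured by RNA-seq in mouse interscapular brown adipose tissue (BAT). They comprise 3 activators (Arntl, Clock and Npas2), 6 repressors (Per1, Per2, Per3, Cry1, Cry2 and Nr1d1) and 1 output gene (Dbp), and all 10 were found in the table, each on a single row. The tissue came from male mice aged 10 weeks on a C57B/6J background, either wild type (WT) or lacking Txnip in the whole body (Txnip-/-), a model in which effects that begin in BAT and in other organs cannot be told apart. Mice of each genotype were kept for 1 week either at room temperature (RT, 23 °C), which is a mild cold load for a mouse, or at thermoneutrality (TN, 30 °C). The 2 genotypes at 2 temperatures made 4 groups, named RT or TN with the genotype, and each group had 3 libraries, 12 in all. The comparison asked whether activators and repressors differed in opposite directions between groups, the pattern that a shift of clock phase or of collection time would give. The hour of collection was not given in the sources used here.

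The molecular clock is a feedback loop of transcription. The heterodimer of BMAL1 (the product of Arntl) with CLOCK, or with its relative NPAS2, binds E-box elements and switches on the Per, Cry and Nr1d1 genes, and the PER and CRY proteins then accumulate and block that same heterodimer. In a second loop REV-ERBα, the product of Nr1d1, competes with ROR receptors at ROR elements and represses Arntl and Npas2, while DBP and its relatives act through D-boxes on genes such as Per3. In peripheral tissues, BAT included, Arntl and Npas2 therefore peak at about the opposite time of day from Nr1d1, Dbp and the Per genes, and the level of any one of them depends on the hour at which the tissue is taken.

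The letters of the elements on which this loop acts are present near the start sites of several members. Windows of 300 bases around RefSeq start sites (build GRCm38.p6) were searched on both strands for the E-box CACGTG, its variant CACGTT, which reads AACGTG on the other strand, the D-box TTATGTAA, the ROR element TAGGTCA and the cyclic AMP response element TGACGTCA. The stretches that hold a match in Per1, Cry1, Cry2, Nr1d1, Per3 and Arntl are shown on the gene's own strand with the matched letters in capitals. They hold the letters of elements through which activators, outputs and repressors of the loop address one another. Binding at these matches was not measured.
Per1, E-box, chr11:69098739-69098838, plus strand: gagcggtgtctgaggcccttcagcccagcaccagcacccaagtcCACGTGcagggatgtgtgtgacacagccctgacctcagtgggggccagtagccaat
Cry1, E-box variant and E-box, chr10:85185065-85185164, minus strand: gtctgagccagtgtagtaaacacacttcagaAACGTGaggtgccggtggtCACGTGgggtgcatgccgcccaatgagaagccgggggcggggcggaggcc
Cry2, E-box variant, chr2:92434180-92434279, minus strand: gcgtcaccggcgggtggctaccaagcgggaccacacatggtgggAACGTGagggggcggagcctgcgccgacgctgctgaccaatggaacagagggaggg
Nr1d1, E-box variant, chr11:98775378-98775477, minus strand: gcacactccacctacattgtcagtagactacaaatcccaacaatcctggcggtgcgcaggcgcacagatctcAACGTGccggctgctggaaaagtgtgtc
Per3, pair of D-boxes, chr4:151044791-151044890, minus strand: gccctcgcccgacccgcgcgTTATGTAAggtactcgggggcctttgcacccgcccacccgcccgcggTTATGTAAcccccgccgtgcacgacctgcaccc
Arntl, ROR element, chr7:113207529-113207558, plus strand: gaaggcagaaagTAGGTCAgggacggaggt
Of all 32817 windows of this length, 7.15% held the E-box, 4.69% its variant, 0.935% the D-box, 2.61% the ROR element and 1.79% the cyclic AMP response element. Per3 held the D-box at -205 and again at -158 from its start site. The Arntl match lay at 30 from the start site of its second window. Per2 was not searched. No match was found in the windows of Clock, Npas2 and Dbp, in the second window of Per1 or in the first window of Arntl, which says only that these letters are absent from those windows. The cyclic AMP response element was not found in any member searched.

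Sequencing depth ranged from 29.93 to 47.44 per library in units of 1000000 reads by the file headers, and the values are TPM, transcript abundances scaled by transcript length and by library. Txnip in Txnip-/- libraries was at 4.74% of the WT mean at RT and 1.06% at TN, below every WT library. A list of 6 adipocyte genes, most of which white fat expresses too, summed to between 16490 and 26559 TPM in every library. Ucp1, the defining marker of brown adipocytes, ranged over 3770 to 4366 TPM in RT WT, 2527 to 3900 in RT Txnip-/-, 621 to 1136 in TN WT and 154 to 339 in TN Txnip-/-, so that the groups at TN lay below every RT library. Other cell types also left transcripts. The sum of 4 macrophage markers ranged over 43.1 to 47.0 TPM in RT WT, 74.5 to 134 in RT Txnip-/-, 101 to 188 in TN WT and 301 to 418 in TN Txnip-/-, and 4 fibroblast markers over 113 to 148, 138 to 155, 188 to 243 and 355 to 365 TPM in the same order. The sum of 4 skeletal muscle markers was 0.509 to 0.774 TPM in RT WT, 13.1 to 34.1 in RT Txnip-/-, 0.547 to 10.5 in TN WT and 0.545 to 10.3 in TN Txnip-/-, and that of 4 endothelial markers ran from 176 to 221 TPM over the RT libraries and from 258 to 325 over the TN libraries. No marker of these lists was at 0 in all libraries of a group. RT WT 1 stood apart from the other RT WT libraries in some immediate early genes, with Nr4a1 at 362 TPM against 11.7 and 5.32, Egr1 at 14.3 against 2.12 and 3.02, and Atf3 at 13.02 against 3.16 and 2.25. RT Txnip-/- 1 stood apart from its group in 2 of these, with Nr4a1 at 77.2 TPM against 3.44 and 4.21 and Atf3 at 4.79 against 1.23 and 1.33. In bulk tissue fewer cells of a type and less RNA per cell cannot be told apart.

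On the TPM scale Nr1d1 and Dbp were the most abundant members and Npas2 the least, with group means of 86.0 to 141 TPM for Nr1d1 and 0.297 to 0.745 TPM for Npas2. Each member has 4 group means and so 3 pairs of neighbouring groups when ordered by level. Of these 30 pairs, 3 had libraries that did not overlap, namely RT WT above TN WT for Per1, TN WT above RT Txnip-/- for Cry2 and TN WT above TN Txnip-/- for Nr1d1. Neighbours are the groups closest in level, and the share of such pairs over all genes was not computed. Between temperatures, 5 of 9 tested members stood apart in WT and 3 in Txnip-/-, beside 57.5% and 61.1% of all genes. Between genotypes 0 did so at RT and 1 at TN, beside 22.6% and 31.1%.

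**Figure D1:**
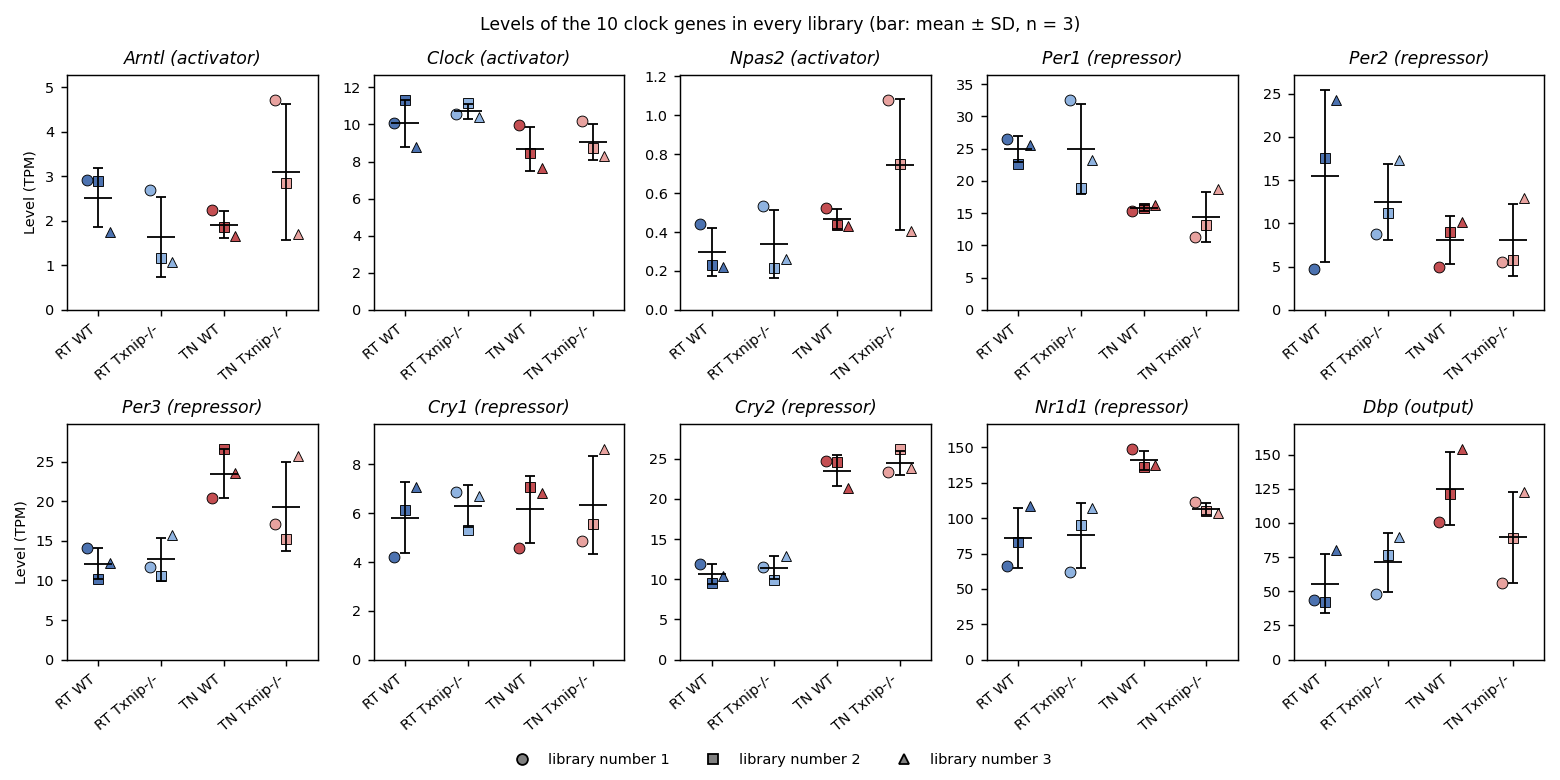
Level of each of the 10 clock genes (y axis, TPM, starting at 0) in the 12 libraries, by group (x axis); symbols give the library number of the label, and bars the mean and SD of 3 libraries. Cry2 and Per3 sit higher at TN than at RT in WT, Per1 sits lower, Nr1d1 at TN is lower in Txnip-/- than in WT, and Per2 spreads most within a group.

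With the deposited scaling, all libraries and no block on library number, the activators showed no called difference in the comparisons below. Arntl, the indispensable partner of the activating heterodimer, is transcribed from chr7:113207465-113314126 (mm10). Its levels in libraries 1, 2 and 3 were 2.92, 2.89 and 1.75 TPM in RT WT, and 2.69, 1.16 and 1.08 TPM in RT Txnip-/-. At TN they were 2.24, 1.86 and 1.66 TPM in WT, and 4.72, 2.86 and 1.71 TPM in Txnip-/-. The 4 groups overlapped, and the highest library of TN Txnip-/- stood above every other library.

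Clock, the steadier partner of BMAL1 (chr5:76209868-76303502), stayed between 7.64 and 11.3 TPM in all 12 libraries. In WT its mean was 10.1 ± 1.27 TPM at RT and 8.70 ± 1.19 TPM at TN, and in Txnip-/- 10.7 ± 0.401 and 9.07 ± 0.97 TPM (SD, n = 3). Npas2, the relative that can replace CLOCK (chr1:39194272-39363240), was read at 0.44, 0.23 and 0.221 TPM in RT WT, at 0.536, 0.216 and 0.259 TPM in RT Txnip-/-, at 0.525, 0.438 and 0.432 TPM in TN WT, and at 1.08, 0.751 and 0.406 TPM in TN Txnip-/-. Library 1 was the highest in each group, and as its mean lay under the minimum of 1 TPM, Npas2 was left out of the main tests, which leaves 9 tested members. In the alternative with no filter on low values it was tested and not called in any of the 5 comparisons. There it came nearest between temperatures in Txnip-/-, at 0.37 higher at TN (adjusted p = 0.0534 by limma), beside 24.9% of all 22936 genes called.

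Among the repressors, the Period genes differed from one another. Per1 (chr11:69098949-69109957), the Period gene that also responds quickly to glucocorticoids and cyclic AMP, was at 26.5, 22.6 and 25.5 TPM in RT WT and at 32.6, 18.96 and 23.3 TPM in RT Txnip-/-. At TN it was at 15.4, 15.7 and 16.3 TPM in WT and at 11.3, 13.1 and 18.7 TPM in Txnip-/-, so that every TN library was below every RT library. Per2 (chr1:91415982-91459328), a core PER protein gene, had 4.72, 17.5 and 24.3 TPM in RT WT, a 5.14-fold span among 3 libraries of a group. The other Per2 values were 8.79, 11.2 and 17.3 TPM in RT Txnip-/-, 4.93, 9.03 and 10.2 TPM in TN WT, and 5.503, 5.799 and 12.9 TPM in TN Txnip-/-. All 4 groups overlapped, and the highest Per2 group mean was only 1.93 times the lowest.

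Per3 (chr4:151003655-151044665), a Period gene that the loop can lose without stopping, was read at 14.1, 10.2 and 12.1 TPM in RT WT and at 11.7, 10.6 and 15.8 TPM in RT Txnip-/-. At TN it reached 20.3, 26.5 and 23.6 TPM in WT, above all RT libraries, and 17.1, 15.2 and 25.7 TPM in Txnip-/-, where 1 library lay within the RT range.

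The Cryptochromes encode the main inhibitors of the BMAL1 and CLOCK heterodimer. Cry1 (chr10:85131700-85185054) varied little between groups, with means at RT of 5.81 ± 1.45 TPM in WT and 6.29 ± 0.853 TPM in Txnip-/- (SD, n = 3), and at TN of 6.16 ± 1.37 and 6.33 ± 2.01 TPM. Cry2 (chr2:92403647-92434069) was at 11.96, 9.59 and 10.5 TPM in RT WT and at 11.6, 9.93 and 12.9 TPM in RT Txnip-/-. At TN its levels were 24.7, 24.6 and 21.3 TPM in WT and 23.4, 26.2 and 23.9 TPM in Txnip-/-. The lowest TN library was far above the highest RT library, and the genotypes overlapped at both temperatures.

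Nr1d1 (chr11:98767932-98775377), which encodes the heme-binding repressor REV-ERBα, was at 66.3, 82.8 and 109 TPM in RT WT and at 62.3, 94.9 and 107 TPM in RT Txnip-/-. At TN it was at 149, 136 and 138 TPM in WT and at 111, 105 and 104 TPM in Txnip-/-. The genotypes overlapped at RT and were apart at TN, where the libraries of each genotype also lay close together. Dbp (chr7:45705247-45710203), the output gene, encodes a transcription factor that carries the rhythm to genes with D-boxes. It was at 43.7, 42.4 and 80.5 TPM in RT WT, at 47.8, 76.2 and 89.9 TPM in RT Txnip-/-, at 101, 121 and 154 TPM in TN WT, and at 56.2, 89.3 and 122.96 TPM in TN Txnip-/-. Every TN WT library was above every RT WT library, while the TN Txnip-/- libraries overlapped all other groups.

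Some of these rows cannot be fully assigned to 1 gene. By the GENCODE annotation, exons on the opposite strand overlap 539 exon bases of Dbp (Sphk2), 263 of Nr1d1 (Thra), 295 of Cry2 (D930015M05Rik) and 33 of Arntl (Gm45355), and none overlap the other 6 members. Whether counting used strand is not stated, so reads from such partners may be included.

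At RT, Txnip deficiency was not accompanied by a called difference in any clock gene. A difference counted as called where the adjusted p was under 0.05 and the log2 fold change exceeded 0.32 in size, the cutoff of the study's methods (limma on log2(TPM + 1), Benjamini-Hochberg over all genes tested). None of the 9 tested members was called or reached an unadjusted p under 0.05, against 1.49% of all 11980 tested genes called (0.76% higher and 0.726% lower), 16% with such a p and 22.6% with groups that did not overlap. Of the activators Arntl was 0.45 lower on the log2 scale (SE 0.25, adjusted p = 0.435) and Clock 0.09 higher. The 6 repressors lay between -0.10 (Per2) and 0.11 (Cry1), 4 above 0 and 2 below, and Dbp was at 0.37 (adjusted p = 0.607). The intervals remained wide for some members, with a 95% confidence interval of -1.33 to 1.13 for Per2, -1.03 to 0.14 for Arntl and -0.33 to 1.07 for Dbp.

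At TN, 1 of the 9 tested members was called, and it was the repressor Nr1d1, which fell in Txnip-/-. Its log2 fold change was -0.40 (SE 0.07, 95% confidence interval -0.55 to -0.24, adjusted p = 0.0123 by limma), from 141 ± 6.71 to 107 ± 4.18 TPM (SD, n = 3). Over all 12891 tested genes 8.66% were called, 6.49% higher and 2.17% lower, 25.6% had an unadjusted p under 0.05 and 31.1% had groups that did not overlap, as Nr1d1 had. The call was lost on the authors' log-scale values (-0.31, adjusted p = 0.0121, under the fold cutoff), at a 1.5-fold threshold, and when all 12 libraries entered 1 fit (-0.40, adjusted p = 0.218), which brings in the spread of Nr1d1 at RT (SD 21.4 TPM in WT and 23.1 TPM in Txnip-/-). Macrophage and fibroblast marker sums were both higher in TN Txnip-/- than in TN WT, with no overlap, and their part in the Nr1d1 difference was not tested. Of 7 immediate early genes tested at TN, Atf3 (0.96, adjusted p = 0.0308) and Fos (0.44, adjusted p = 0.0488) rose in Txnip-/- and Jun fell (-0.79, adjusted p = 0.0191), beside the 8.66% of all genes called. Fos was not called after upper-quartile scaling (0.42, adjusted p = 0.0549), and the part of these genes in the Nr1d1 difference was not tested either.

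The other members at TN did not pass the test. Arntl was 0.43 higher in Txnip-/- (SE 0.24, adjusted p = 0.327) and Clock 0.06 higher, while Dbp was at -0.53 (SE 0.27, adjusted p = 0.267), Per3 at -0.29 and Per1 at -0.16. Per3 was called when TN Txnip-/- 3 was left out (-0.51, adjusted p = 0.0491). Per2 (-0.04), Cry1 (0.02) and Cry2 (0.06) lay near 0. By sign alone, both tested activators were above 0, 4 of 6 repressors and Dbp were below, and Npas2 had a mean of 0.745 ± 0.337 TPM in Txnip-/- against 0.465 ± 0.0520 in WT (0.23, adjusted p = 0.464 with no filter). With 1 of these 9 differences called, an opposite movement of activators and repressors was not established at TN.

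**Figure D2:**
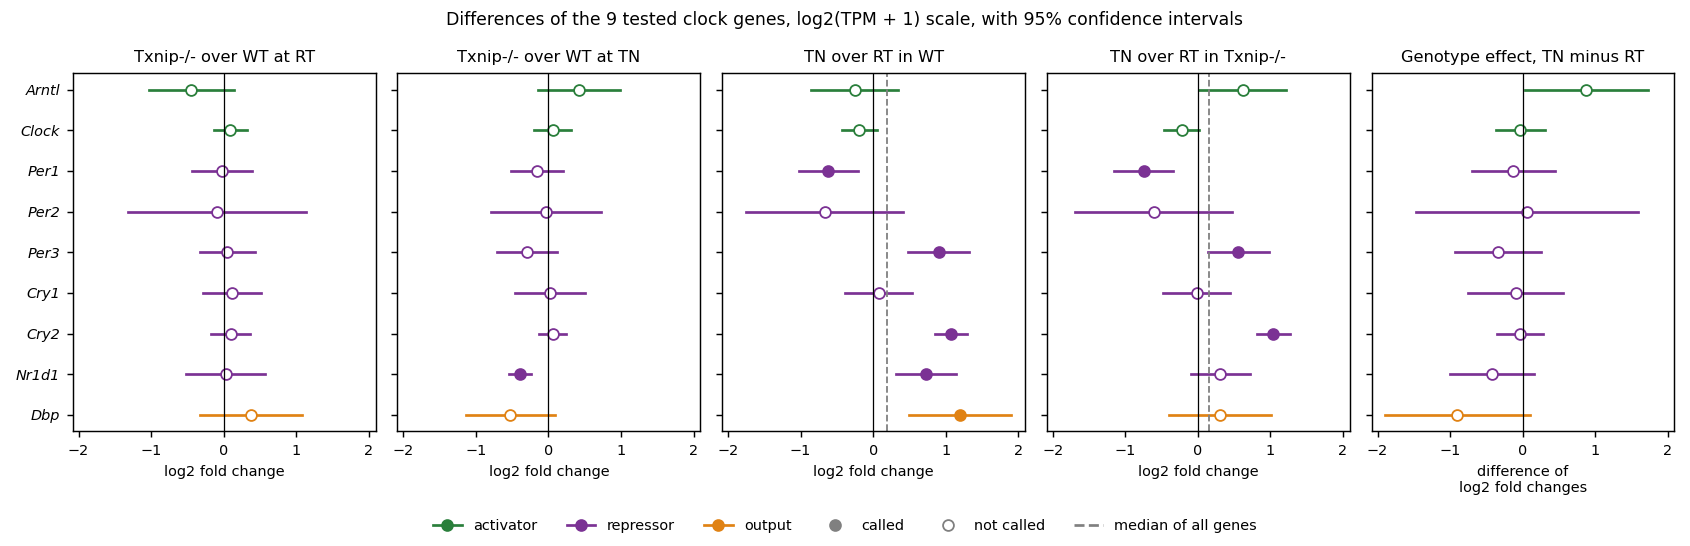
Differences of the 9 tested members (rows) in the 5 comparisons (panels), on the log2(TPM + 1) scale, with 95% confidence intervals; filled points were called, colors mark activators, repressors and the output gene, and the dashed line is the median of all tested genes between temperatures. Called differences are Nr1d1 between genotypes at TN and, between temperatures, Per1, Per3 and Cry2 in both genotypes and Nr1d1 and Dbp in WT.

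The interaction test asked whether the genotype difference itself differed between temperatures, and no member passed it. Over all 12486 genes only Txnip was called, which is 0.00801%, and 12.6% had an unadjusted p under 0.05. Arntl came nearest, as the genotype difference was 0.87 higher at TN than at RT on the log2 scale (SE 0.39, 95% confidence interval 0.03 to 1.72, adjusted p = 0.382 by limma), and it was the only member of 9 with an unadjusted p under 0.05. Dbp had the opposite sign, at -0.90 (SE 0.45, adjusted p = 0.442), followed by Nr1d1 at -0.42 (adjusted p = 0.537) and Per3 at -0.35 (adjusted p = 0.623). Thus Nr1d1, although called at TN and not at RT, was not shown to differ between the temperatures in its response to Txnip deficiency.

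Between temperatures several clock genes were called, and among the repressors in both directions. In WT, 5 of the 9 tested members were called between TN and RT, 4 higher and 1 lower, while of all 12486 genes 37.8% were called, 31.4% higher and 6.39% lower, and 56.9% had an unadjusted p under 0.05. The share called among members is thus read against a background in which more than 1 gene in 3 was called. The median of all tested genes was 0.18 above 0 on the log2 scale in WT and 0.15 in Txnip-/-, and it fell to 0.02 and 0.01 after upper-quartile scaling, so each called change of a member is also given on that second scale. On that scale 4 members were called higher and 2 lower in WT, beside 2172 and 1756 of all 12463 genes. In Txnip-/- 1 was called higher and 2 lower, beside 2629 and 2080.

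Cry2 rose at TN in WT by 1.07 on the log2 scale (SE 0.10, adjusted p = 5e-05 by limma), and by 0.90 after upper-quartile scaling. Dbp rose by 1.20 (SE 0.32, adjusted p = 0.00942), or 1.02 after scaling. Per3 rose by 0.90 (SE 0.19, adjusted p = 0.00277), or 0.73, and Nr1d1 by 0.73 (SE 0.19, adjusted p = 0.00766), or 0.55. All 4 also stood apart from RT without overlap, which 57.5% of all genes did in either direction. In the other direction Per1 was the only called member, with a log2 fold change of -0.62 (SE 0.19, adjusted p = 0.0161), or -0.80 after scaling. Per2 (-0.67, adjusted p = 0.275) and Cry1 (0.08, adjusted p = 0.785) did not pass, although Per2 was called without RT WT 1 (-1.31, adjusted p = 0.0151), which is 1 of the 2 RT libraries that stood apart in immediate early genes. Without it 6 of the 9 tested members were called, Per2 beside the same 5, while 37.9% of all 12530 genes were called. The tested activators were both below 0 without passing, Arntl at -0.26 (adjusted p = 0.454) and Clock at -0.19 (adjusted p = 0.166), and Clock passed only after upper-quartile scaling, at -0.36 (adjusted p = 0.0189). By sign both tested activators were below 0 in WT, 4 of 6 repressors and Dbp were above, and among the called repressors 3 rose and 1 fell, Per1 and Per3 moving in opposite directions. An opposite movement of activators and repressors was not tested as such, and no activator was called in WT without that scaling.

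In Txnip-/- mice 3 of the 9 members were called between temperatures, 2 higher and 1 lower, beside 39.2% of all genes, 30.9% higher and 8.27% lower, with groups apart in 61.1%. Cry2 rose by 1.04 (SE 0.10, adjusted p = 2.38e-05 by limma), or 0.88 after upper-quartile scaling, and Per1 fell by 0.75 on the log2 scale (SE 0.19, adjusted p = 0.00565), or by 0.90. Per3 rose by 0.56 (SE 0.19, adjusted p = 0.0298), with overlapping libraries, and this call was lost after upper-quartile scaling (0.40, adjusted p = 0.095) and without any 1 of 3 libraries (RT Txnip-/- 1, RT Txnip-/- 2 or TN Txnip-/- 3). Nr1d1 and Dbp did not pass, at 0.31 (adjusted p = 0.188) and 0.30 (adjusted p = 0.452). Arntl was at 0.62 (SE 0.27, adjusted p = 0.0784), of the sign opposite to that in WT, and it was called when RT Txnip-/- 1 was left out (0.88, adjusted p = 0.0168) or TN Txnip-/- 3 (0.88, adjusted p = 0.0192). RT Txnip-/- 1 is the other RT library that stood apart in immediate early genes, and their part in these calls was not tested. Clock was at -0.22 (adjusted p = 0.108), with every TN library below every RT library, and it was called after scaling (-0.37, adjusted p = 0.0134).

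The library names in the tables number the TN mice apart from the RT mice, and no batch or hour is given, so temperature and any difference in the occasion of collection cannot be told apart. Marker sums moved with temperature too, as in both genotypes those of macrophages, fibroblasts and endothelium were higher at TN without overlap and that of the adipocyte list was lower. Within that list Ucp1, Fabp4, Cidea and Plin1 had lower means at TN in both genotypes, and Adipoq and Pparg went the other way. Mean Adipoq went from 887 to 1011 TPM in WT and from 926 to 1142 in Txnip-/-. Mean Pparg went from 234 to 346 and from 229 to 252 TPM. After upper-quartile scaling neither Adipoq nor Pparg was called. The skeletal muscle sum was lower at TN in Txnip-/- without overlap, where all 4 of its markers were called lower, from -1.81 for Myh4 to -2.04 for Ckm, and in WT none of the 4 was called. The part of these cell types in the clock gene differences was not tested. Lists of genes that respond to handling and hormones are given beside the temperature changes. Of 4 glucocorticoid response genes, 1 fell at TN in WT (Sgk1, -2.19, adjusted p = 0.00011) and 2 in Txnip-/- (Sgk1, -1.30, and Tsc22d3, -0.72). The other 3 in WT did not pass, with Zbtb16 at -0.69 (adjusted p = 0.45), and 6.39% of all genes were called lower in WT and 8.27% in Txnip-/-. Of 7 tested immediate early genes, 3 rose in WT (2 rose and Ier2 fell after upper-quartile scaling) and 4 in Txnip-/- at TN, led by Jun (1.44, adjusted p = 0.00324 in WT) and Egr1 (2.17, adjusted p = 0.00195 in Txnip-/-), while 31.4% and 30.9% of all genes were called higher in the same comparisons. After the scaling 2172 of all 12463 genes were called higher in WT and 1756 lower. Without RT WT 1, an alternative chosen after seeing the data, 4 of the 7 rose in WT, with Egr1 (1.84, adjusted p = 0.000182) beside Fos, Jun and Junb. Of all 12530 genes 3934 were then called higher and 820 lower. Without RT Txnip-/- 1, likewise chosen after seeing the data, 5 of the 7 rose in Txnip-/-, with Atf3 (1.60, adjusted p = 0.0194) added, and all 4 glucocorticoid response genes fell, with Zbtb16 (-2.35, adjusted p = 0.00484) and Fkbp5 (-1.62, adjusted p = 0.0268) added. Of all 12504 genes 4003 were then called higher and 1124 lower. The part of these lists in the Per1 difference was not tested.

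Other genes of the clock are given as a list of 22, of which 20 could be tested. Between genotypes at RT limma called 0 of these 20, with 2 at an unadjusted p under 0.05, while 1.49% of all genes were called and 16% had such a p, and the furthest from 0 were Noct (-0.59, adjusted p = 0.207), Hlf (-0.30, adjusted p = 0.264) and Wee1 (0.27, adjusted p = 0.409). At TN it called 0 of the 20, with 3 at such a p, beside 8.66% and 25.6% of all genes. Usp2, a deubiquitinase gene, was at -0.74 (adjusted p = 0.116), Hlf, a relative of Dbp, at -0.73 (adjusted p = 0.0566) and Ciart, a repressor of the BMAL1 and CLOCK heterodimer, at -0.40 (adjusted p = 0.33). No gene of this list passed the interaction test, and 4 of the 20 had an unadjusted p under 0.05 beside 12.6% of all genes, the furthest being Noct (0.89, adjusted p = 0.285), Usp2 (-0.71, adjusted p = 0.37) and Ciart (-0.60, adjusted p = 0.662).

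Between temperatures in WT, 7 of the 20 rose and 4 fell, beside 31.4% and 6.39% of all genes, with a median of 0.28 beside 0.18 over all genes. After upper-quartile scaling 4 rose and 4 fell, beside 2172 higher and 1756 lower of all 12463 genes tested on that scale. Hlf, Btrc and Wee1 were then no longer called. Noct, which encodes nocturnin, a rhythmically expressed phosphatase of NADP(H), had the largest change in this list and the members alike. It was at 96.4, 114 and 93.6 TPM in RT WT and at 4.13, 5.78 and 6.21 TPM in TN WT, and its log2 fold change was -4.01 (SE 0.22, adjusted p = 4.35e-06 by limma). In Txnip-/- it went from 80.8, 77.3 and 47.0 TPM at RT to 5.55, 5.83 and 9.43 TPM at TN (-3.12, adjusted p = 6.64e-06). No TN library reached the range of the RT libraries in either genotype.

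The remaining called genes of this list fall into groups by role. Among receptors and E-box factors, Bhlhe41, which encodes the E-box repressor DEC2, rose by 1.08 in WT and 0.82 in Txnip-/-, and Arntl2, the paralog of Arntl, by 0.61 and 0.65. Nr1d2, the paralog of Nr1d1, rose in WT (0.59, adjusted p = 0.00464) and was not called in Txnip-/- (0.07), a difference that did not pass the interaction test. Among D-box factors Hlf rose in WT (0.58, adjusted p = 0.02), and Nfil3, the D-box repressor, fell by 0.99 in WT and by 0.74 in Txnip-/- on the log2 scale. Among modifiers Timeless rose by 1.22 and 1.16, and Btrc, a ligase subunit that targets PER, by 0.38 and 0.34. Usp2 fell by 0.82 in WT and by 1.53 in Txnip-/-, Cipc, an inhibitor of CLOCK, fell by 0.36 in WT, and the cell cycle kinase gene Wee1 rose there by 0.43. In Txnip-/- 4 of 20 rose and 3 fell, beside 30.9% and 8.27% of all genes, with a median of 0.05 beside 0.15 over all genes. After scaling 3 rose and 7 fell, beside 2629 higher and 2080 lower of all 12463 genes tested on that scale. Btrc was then no longer called, and Ciart, Fbxw11, Cipc and Nampt were called lower.

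**Figure D3:**
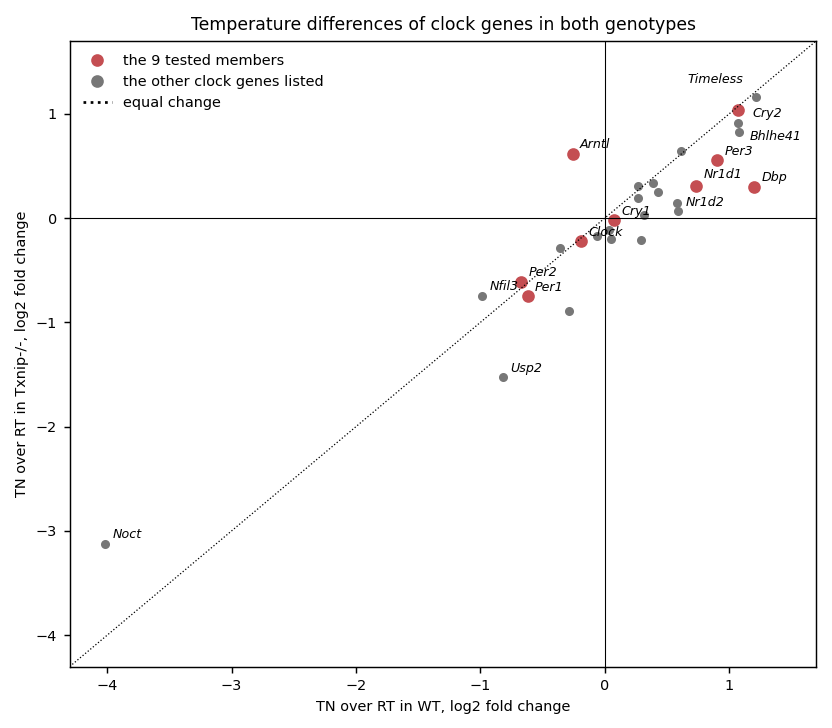
Log2 fold change of TN over RT in WT (x axis) and in Txnip-/- (y axis) for the 9 tested members (red) and the 20 other clock genes tested (grey), with the line of equal change dotted. Noct lies far below the rest at -4.01 and -3.12, Cry2 lies near the line at 1.07 and 1.04, and Arntl is the member with opposite signs furthest from 0.

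Within groups most of the 9 tested members varied more between mice than most genes did. The pooled SD within groups, on the log2(TPM + 1) scale, was 0.73 for Per2, above that of 99.35% of the 12486 genes, then 0.47 for Dbp (97.42%) and 0.39 for Arntl (96.13%). Cry1, Per3, Nr1d1 and Per1 lay between 0.27 and 0.30, so 7 of 9 tested members were above the 90th percentile. Clock (0.14, 61.51%) and Cry2 (0.13, 58.25%) were near the median gene, which had an SD of 0.12. This was not particular to the members, as 6 of 7 immediate early genes and 4 of 4 glucocorticoid response genes were also above the 90th percentile, against 7 of 20 other clock genes. Cry2, the member with the clearest temperature difference, was thus also the least variable within groups.

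The variation followed the library number of the labels for some members. Arntl was highest in library 1 and lowest in library 3 in 4 of 4 groups. Per2 showed the reverse, being lowest in library 1 and highest in library 3 in 4 of 4 groups, and Dbp was highest in library 3 in 4 of 4 groups. For 2 of the 9 tested members the same number was both highest and lowest in all groups, while this held for 76 of the 12486 genes (0.609%), and the same number was highest throughout for 3 of 9 members and 4.26% of genes. These members were noticed in the same libraries, so the counts are a description.

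Arntl and Per2 thus had the reverse rank order within every group, and wherever Arntl was highest Per2 was lowest. The sizes were not mirrored. In RT WT libraries 1 and 2, Arntl was nearly equal at 2.92 and 2.89 TPM while Per2 was at 4.72 and 17.5 TPM. For Dbp the lowest library was that with the highest Arntl in 3 of 4 groups, and the highest Dbp library was that with the lowest Arntl in 4 of 4. Nr1d1, which represses Arntl, was lowest at the highest Arntl in 2 of 4 groups, both at RT, where it ranged 1.64-fold and 1.72-fold among mice. At TN Nr1d1 spanned only 1.09-fold in WT and 1.07-fold in Txnip-/-, although Arntl spanned 1.35-fold and 2.76-fold there. For the other repressors the counts of groups with the lowest library at the highest Arntl, and with the highest at the lowest Arntl, were 3 and 2 of 4 for Cry1, 2 and 2 for Per1, 1 and 2 for Per3 and 1 and 1 for Cry2. The opposition within groups was thus seen for Per2 and Dbp, singled out after their values were seen, and it was not tested.

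**Figure D4:**
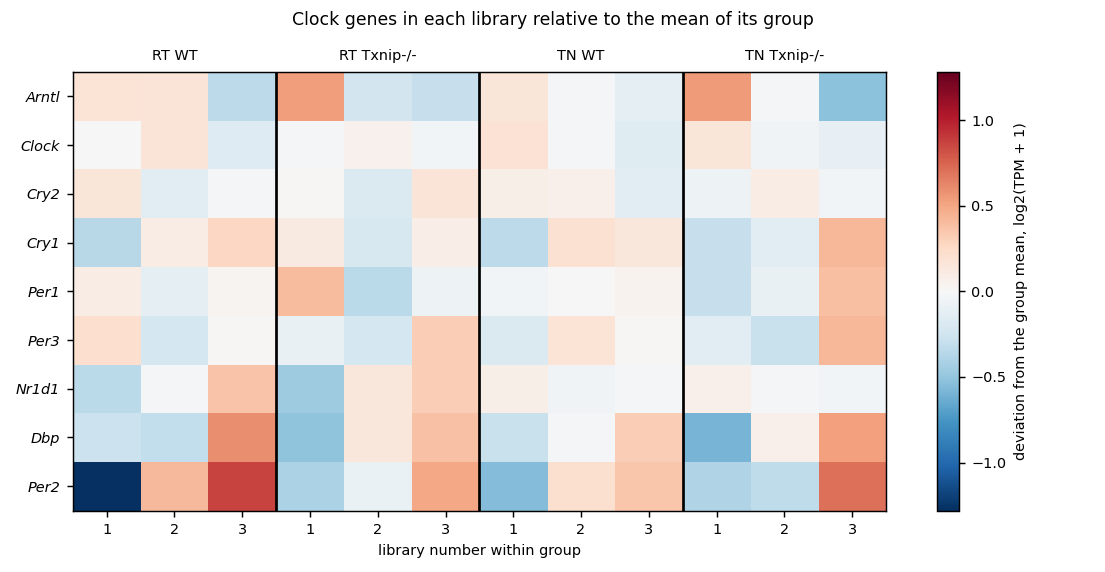
Deviation of each of the 9 tested members (rows) from its group mean, log2(TPM + 1) scale, in the 12 libraries (columns, by library number within each group). Arntl is above its mean in library 1 and below it in library 3 of every group, Per2 shows the reverse, and Clock and Cry2 deviate little.

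**Figure D5:**
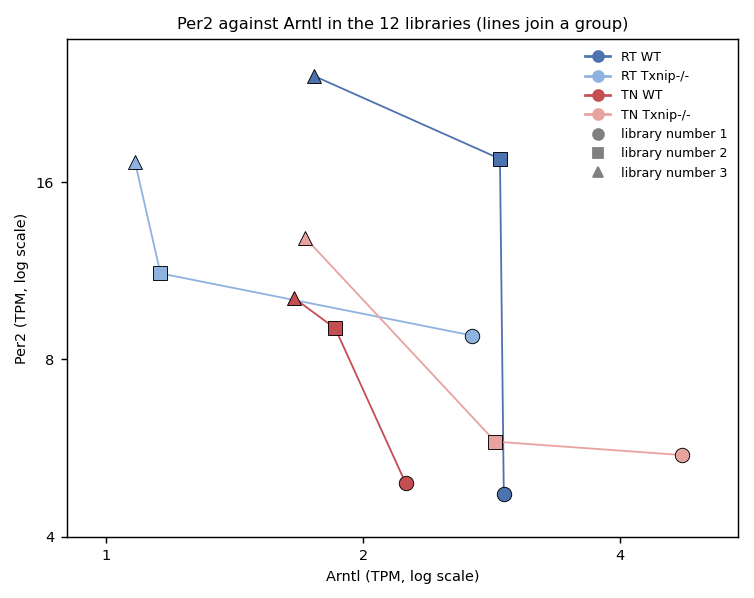
Per2 (y axis) against Arntl (x axis), both in TPM on log scales, in the 12 libraries, with lines joining the 3 libraries of a group and symbols giving the library number. In each of the 4 groups library 1 has the highest Arntl and the lowest Per2, and library 3 the lowest Arntl and the highest Per2.

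A few genes outside the members, named after their values were seen, followed the library number as well. The same number was both highest and lowest in all groups for 1 of the 20 other clock genes tested (Tef), 1 of 7 immediate early genes (Fos) and 1 of 4 glucocorticoid response genes (Zbtb16). Tef, a relative of Dbp, was highest in library 3 and lowest in library 1 in 4 of 4 groups, and Fos, an immediate early gene, was highest in library 1 and lowest in library 3 in 4 of 4. Zbtb16 was highest in library 3 and lowest in library 1 in 4 of 4 groups and ran from 4.18 to 45.1 TPM within RT Txnip-/-. Fkbp5, another glucocorticoid response gene, was highest in library 3 in 4 of 4 groups. Across all genes the library numbers did not pair the samples throughout. Deviations of same-numbered libraries of the genotypes correlated at 0.297, -0.0221 and 0.21 at RT and at 0.042, 0.0228 and -0.0362 at TN. The WT library correlated best with its own number for libraries 1 and 3 at RT and for library 2 at TN. Between temperatures the values were 0.172, -0.132 and 0.106 in WT and 0.0334, -0.0282 and -0.051 in Txnip-/-. There only library 1 correlated best with its own number in each genotype. Whether the order of collection, handling or another factor went with the numbers was not tested, since the sources used here give none of them.

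The profiles of other genes across the 12 libraries were compared with those of Arntl and Dbp by Pearson's r on log2(TPM + 1), as a description, since libraries of a group share temperature and genotype. Closest to Dbp were Nr1d2 (r = 0.940), Lin9 (0.903), Sphk2 (0.898), Herpud1 (0.894) and Vdac2 (0.891). Sphk2 is the gene whose exons overlap Dbp on the other strand. Among the closest to Arntl were Ankrd50 (r = 0.848), Fgfr1 (0.815), Crispld2 (0.813) and Rab11fip5 (0.808).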

How the data were processed

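Reads were mapped by the authors to mm10 (STAR 2.7.5a). They counted exon reads with HOMER 4.11.1, 1 transcript per gene, and deposited TPM for 12 libraries, the values used here. The deposited tables of each temperature also hold log2 values of its 6 libraries and the authors' DESeq2 fold changes and p-values. The log2 values served as an alternative and the fold changes and p-values were not used. For Arntl and Clock (2 of 10 members) those tables use another transcript than the TPM.

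Genes whose TPM averaged 1 or more were tested on log2(TPM + 1) in R 4.3.3 with limma 3.58.1 (trend, Benjamini-Hochberg), genotypes on the 6 libraries of a temperature, temperature and interaction on all 12 libraries. Fold changes on this scale understate those of low genes. TPM give no counting error. Separate samples were taken as separate mice; otherwise p-values cover technical spread only. On simulated data (200 genes changed by 1 on the log2 scale) the tests recovered 83.5 to 93.5%. The changed genes were drawn from genes in general, whereas 7 of 9 tested members varied above the 90th percentile. Recovery for the members, or for smaller changes, was not measured.

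Members and lists were chosen with earlier results of these data known. Named genes are all members, Txnip, called genes of the other clock list with its 3 largest changes per comparison, the 2 largest changes of the short response lists, and the 5 genes most like Arntl and Dbp. Some genes of the list and the rule are not reported here, and counts of the list leave them out. Alternatives were a pseudocount of 0.1, no filter, upper-quartile scaling, the replicate number as a block, leaving out each library, a 1.5-fold threshold and other sets of libraries in the fit. Library numbers did not pair the samples throughout by the correlation of their deviations. Promoter windows are from RefSeq, exon overlaps from GENCODE. Python 3.11.15 and matplotlib 3.10.9 served for the figures.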

Additional observations from a re-analysis of the deposited data

How the results depend on the processing

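Over the 45 differences of tested members, 711 refits under the alternatives kept direction and call in 648, lost the call in 10, gained it in 8 and changed sign in 45, of which 3 used all libraries. In the genotype comparison at TN the 1 called member became 2 with a replicate block (Nr1d1, adjusted p = 0.0259, and Dbp, 0.0405, by limma), and 0 at a 1.5-fold threshold, 0 with all 12 libraries in 1 fit, and 0 on the authors' log-scale values, where Nr1d1 had an adjusted p of 0.0121 at -0.31, under the fold cutoff. Leaving out 1 library gave 1 to 2 called members there (2 without TN Txnip-/- 3, when Per3 was called at -0.51, adjusted p = 0.0491), 0 to 0 at RT and in the interaction, 5 to 6 between temperatures in WT (6 without RT WT 1, with Per2 at -1.31, adjusted p = 0.0151) and 2 to 3 in Txnip-/-. In these refits 3.55 to 7.82% of all genes were called between genotypes at TN. Between temperatures the share was 32.9 to 38.2% in WT and 34.3 to 41.0% in Txnip-/-. The library number did not pair the samples throughout (some libraries, but not all, correlated best with their own number), so the block is given only here. Between temperatures in Txnip-/- the block added Arntl (adjusted p = 0.0109 by limma). In the same comparison Per3 was not called with no filter (0.0515) or only that genotype's libraries (0.0518). Upper-quartile scaling changed the share of called genes that were higher at TN from 83.1% to 55.3% in WT and from 78.9% to 55.8% in Txnip-/-; the cause was not tested.

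Signs changed only for differences near 0 or for Per2. Nr1d1 at RT between genotypes was -0.0134 after upper-quartile scaling and -0.0139 on the authors' log values, and Cry1 between temperatures in WT was -0.0841 after scaling. Without 1 library, the genotype difference at RT ranged over -0.145 to 0.254 (Nr1d1), -0.230 to 0.144 (Per1), -0.737 to 0.335 (Per2), -0.106 to 0.161 (Per3) and -0.0660 to 0.248 (Cry1). At TN it ranged over -0.392 to 0.155 (Per2), -0.192 to 0.167 (Cry1), -0.0228 to 0.150 (Clock) and -0.0102 to 0.0924 (Cry2). The interaction ranged over -0.373 to 0.699 (Per2), -0.306 to 0.0860 (Cry1), -0.128 to 0.0454 (Cry2), -0.115 to 0.0603 (Clock) and -0.323 to 0.0733 (Per1). Cry1 between temperatures ranged over -0.104 to 0.246 in WT and -0.230 to 0.129 in Txnip-/-. With 3 libraries a group, the intervals of Per2, Dbp and Arntl limit what can be detected, and TPM give no depth for single values.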
